A study of Mus musculus with 6 samples.

Results

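The 10 genes described here carry or report the integrated stress response of mouse cells: the sensor kinase gene Eif2ak4, the phosphatase subunit gene Ppp1r15a, the transcription factor genes Atf4, Ddit3, Atf3 and Atf5, and the target genes Ddit4, Sesn2, Trib3 and Asns. They were chosen by name after the difference between ALX-5407-treated and vehicle-treated cultures in these same libraries had been seen, so the values that selected them are their own contrast values. Those values are given as a description, without a test. They are 10 of the 54532 genes in the count file, where 11 entries carry the 10 names because Ddit3 has a further identifier with 0 counts in every library. All 10 passed the filter on low counts, which left 15938 genes.

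CD4+ T cells came from spleens of C57BL/6 mice, male and aged 6 to 8 weeks according to the methods of the study, and were grown under Th1 conditions for 72 h. All 6 cultures received anti-CD3, anti-CD28, IL-2, IL-12 and an antibody to IL-4. ALX-5407, which blocks the glycine transporter GlyT1, was added to 3 of them at 500 nM, and 3 were given vehicle alone (0.1% DMSO). The RNA of each culture was sequenced as a library of its own, which gave total counts of 33432304, 32518060 and 30801753 for vehicle replicates 1 to 3 and 34735568, 36727788 and 34142475 for ALX-5407 replicates 1 to 3. The labels give 72 h for the culture with ALX-5407. The study's text gives 24 h of exposure in one place and elsewhere describes treatment over the whole culture. The labels describe capture of polyadenylated RNA and the methods depletion of ribosomal RNA. The replicates are labelled biological, without a statement that each came from a different mouse, so p-values measure the spread between these cultures.

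The integrated stress response begins with kinases that phosphorylate the initiation factor eIF2, among them GCN2, the product of Eif2ak4, which senses uncharged transfer RNA when amino acids are short. Phosphorylated eIF2 lowers protein synthesis in general while translation of a few messengers, Atf4 first among them, increases through reading frames ahead of the coding part. ATF4 protein then turns on genes of amino acid supply and further regulators such as CHOP (Ddit3) and ATF3, and the GADD34 protein (Ppp1r15a) brings to eIF2 the phosphatase that ends the signal. In T cells, GCN2 is known for linking amino acid shortage to reduced proliferation. Control of Atf4 is in large part translational, and RNA counts do not measure it.

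The T cell label was checked against marker lists. All 13 T cell and Th1 markers were measured, with a summed level of 3791, 3799 and 3724 CPM in the vehicle cultures and 3657, 3643 and 3626 CPM in the ALX-5407 cultures, where CPM is the count scaled to library size, after adjustment of library sizes by TMM, edgeR's trimmed-mean normalization. A gene outside the 10 is called higher or lower here by an adjusted p under 0.05 in edgeR, which held for 24.5% (higher) and 23.2% (lower) of all tested genes, 47.7% in either direction. Of the T cell markers, 2 were called higher (Cd28 and Tbx21) and 5 lower (Cd4, Cd3d, Cd3g, Trbc1 and Trbc2). None was at 0, and the most abundant per length was Trbc2. Cd4 was at 663, 703 and 571 CPM with vehicle and 468, 481 and 459.9 CPM with ALX-5407, and the Th1 factor gene Tbx21 at 85.8, 77.7 and 81.5 against 107, 98.9 and 105 CPM. The CD8 markers, Cd8a and Cd8b1, summed to 9.40, 9.25 and 9.59 CPM in the vehicle cultures and 6.71, 7.56 and 8.87 CPM in the ALX-5407 cultures. Cd8a was called lower (3.91 to 2.24 CPM, log2 fold change -0.80, adjusted p = 0.0111), and Cd8b1, the more abundant per length, was not called (log2 fold change -0.01).

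Of the markers of other cells, the 8 B cell genes summed to 29.97, 29.6 and 26.03 CPM in the vehicle cultures and 25.7, 22.8 and 22.5 CPM in the ALX-5407 cultures, with 5 called higher (Blnk, Ms4a1, Pax5, Cd22 and Cd79a, log2 fold changes 1.58, 1.27, 0.90, 0.78 and 0.67) and 1 lower, Ebf1 (17.6 to 5.71 CPM). The lower sum with ALX-5407 comes from Ebf1, since the other 7 summed to 11.3, 11.5 and 10.04 CPM in the vehicle cultures and 19.6, 16.4 and 17.8 CPM in the ALX-5407 cultures. Per length, Ebf1 was the most abundant of the 8 with vehicle and Cd79a with ALX-5407. The 7 natural killer genes, led by Klrc1, summed to 46.1, 47.97 and 55.7 CPM in the vehicle cultures and 50.2, 39.7 and 44.1 CPM in the ALX-5407 cultures, and of the 4 tested 1 was called higher and 2 lower. The 7 erythroid genes, led by Klf1, summed to 1.07, 1.34 and 1.59 CPM in the vehicle cultures and 1.42, 1.15 and 0.827 CPM in the ALX-5407 cultures (adjusted p = 0.542 for Klf1 and 0.754 for Alas2). The 13 myeloid genes summed to 92.4, 97.7 and 86.5 CPM in the vehicle cultures and 38.3, 31.95 and 33.8 CPM in the ALX-5407 cultures, nearly all of it from Ly6g and Cd68, while the defining markers S100a8 and S100a9 were at 0 and 10 of the 13 did not pass the filter. At these totals a count of 0 allows up to 3 counts in a library. Ly6g (72.1 ± 2.81 to 27.0 ± 4.04 CPM, SD, n = 3 each) and Cd68 (18.3 ± 3.16 to 5.44 ± 0.345 CPM) were called lower and were lower with ALX-5407 in all 3 cultures. The third tested gene, Cybb, was at 1.04, 1.15 and 1.10 CPM with vehicle and 1.30, 1.77 and 2.17 CPM with ALX-5407, higher without overlap but not called (log2 fold change 0.67, adjusted p = 0.0719). The part of such differences in the values below was not tested. In bulk RNA, fewer cells of a type and less RNA per cell cannot be told apart.

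The 10 genes moved apart rather than together. With ALX-5407, the target genes Trib3, Sesn2 and Asns, the transcription factor gene Atf5 and, by a small step, the kinase gene Eif2ak4 were higher in every culture than in any vehicle culture, whereas Atf4 itself, Ddit3 and Atf3 were lower in every culture. Ppp1r15a and Ddit4 had lower means with ALX-5407, and their groups overlapped. Thus 5 of the 10 had every ALX-5407 culture above every vehicle culture by CPM and 3 had every one below, beside 28.4% and 27.1% of tested genes. Because the genes were selected on this contrast, nothing is read from these shares. The median log2 fold change of the 10 was -0.03, beside 0.01 over all tested genes.

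Their summed level overlapped between the groups, at 1286, 1275 and 1088 CPM in the vehicle cultures and 1285, 1341 and 1149.8 CPM in the ALX-5407 cultures. What differed was its make-up. Atf4 and Ddit4 together held 68.4, 68.3 and 65.5% of the counts on the 10 genes with vehicle and 49.8, 48.9 and 44.2% with ALX-5407. Asns, Trib3 and Sesn2 went the other way, from 12.7, 12.6 and 15.9% to 33.7, 34.4 and 38.8%. The share of Atf3, Ddit3 and Ppp1r15a was 13.3, 13.6 and 12.7% with vehicle and 9.40, 9.78 and 9.31% with ALX-5407. None of these shares overlapped between the groups, and they rest on 33488 to 50040 counts a library.

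**Figure D1:**
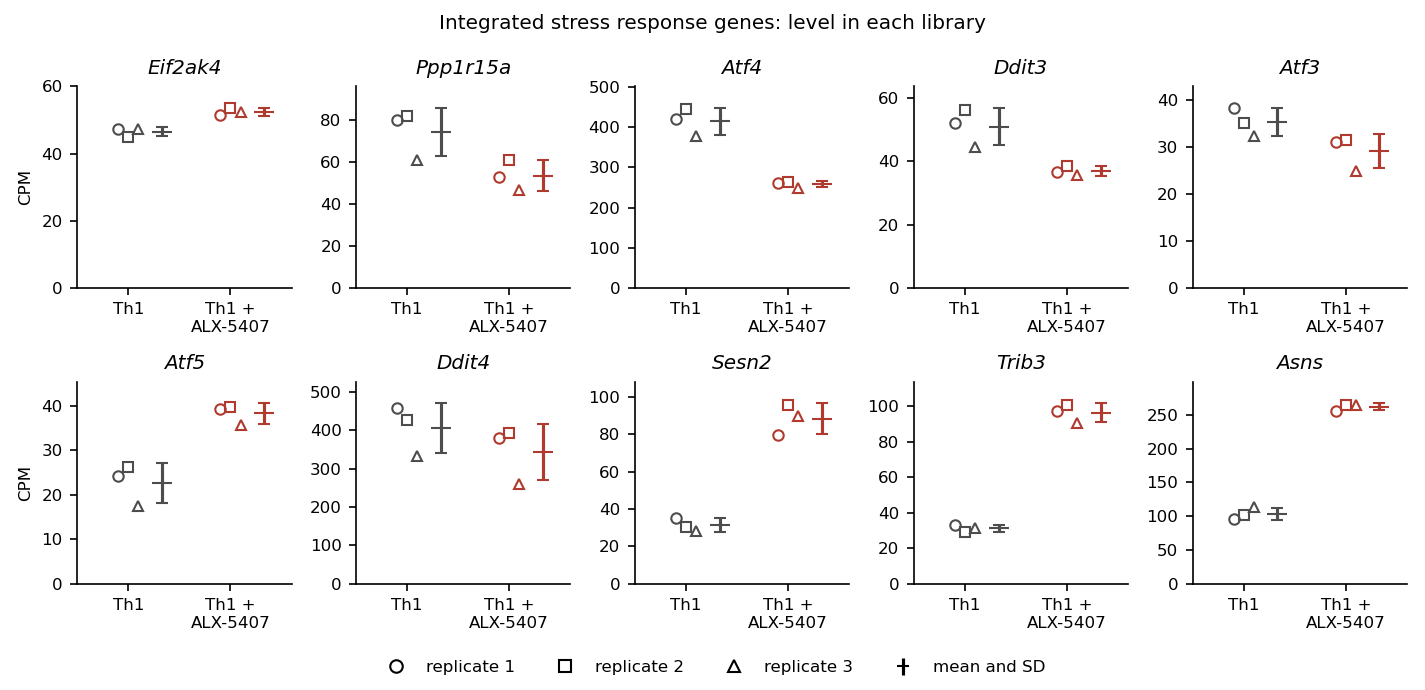
Level of each of the 10 genes in CPM (y axis, from 0) in the 3 vehicle cultures (grey) and the 3 ALX-5407 cultures (red), with 1 symbol for each replicate and the mean with SD beside them. Trib3 lies between 29.3 and 32.9 CPM with vehicle and between 90.8 and 101 CPM with ALX-5407, while Atf4 lies between 378 and 446 and then between 249 and 263 CPM.

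Because 3 targets of ATF4 separated from Atf4 itself, the letters ahead of these genes were read from RefSeq promoters on the GRCm38.p6 build, 300 bases each, from 250 before to 50 after a transcript start. All 10 genes matched, with 12 windows. The RefSeq starts need not be the ends of the gene spans given below. Motifs searched on both strands were TGATGNAA, the core shared by C/EBP-ATF response elements, its special case TGATGCAA, the cAMP response element TGACGTCA, which reads the same on both strands, and the ER stress response element. The windows of Trib3 (chr2:152344011-152344310, - strand), Asns (chr6:7693160-7693459, - strand) and Sesn2 (chr4:132510407-132510706, - strand) are shown because these 3 targets had the largest increases of the 10, and that of Atf4 (chr15:80254934-80255233, + strand) because it encodes a known regulator of them. Those of Atf3 (chr1:191183284-191183583, - strand, a start inside the annotated span) and Ppp1r15a (chr7:45526219-45526518, - strand) are shown because they hold the other matches. Capitals mark a match to TGATGNAA or TGACGTCA, on either strand, and all lines run 5′ to 3′ on the strand of the gene.
Trib3: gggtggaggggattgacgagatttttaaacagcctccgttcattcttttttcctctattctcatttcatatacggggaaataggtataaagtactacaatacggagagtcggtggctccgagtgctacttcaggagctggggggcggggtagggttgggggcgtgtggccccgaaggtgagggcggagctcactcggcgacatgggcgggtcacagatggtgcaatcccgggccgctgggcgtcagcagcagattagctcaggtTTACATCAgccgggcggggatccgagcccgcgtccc
Asns: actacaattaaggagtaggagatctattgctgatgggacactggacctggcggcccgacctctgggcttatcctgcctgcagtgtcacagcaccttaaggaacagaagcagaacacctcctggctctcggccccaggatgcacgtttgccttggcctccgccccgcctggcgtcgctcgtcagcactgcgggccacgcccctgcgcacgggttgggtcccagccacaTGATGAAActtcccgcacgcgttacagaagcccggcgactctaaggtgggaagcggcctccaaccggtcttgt
Sesn2: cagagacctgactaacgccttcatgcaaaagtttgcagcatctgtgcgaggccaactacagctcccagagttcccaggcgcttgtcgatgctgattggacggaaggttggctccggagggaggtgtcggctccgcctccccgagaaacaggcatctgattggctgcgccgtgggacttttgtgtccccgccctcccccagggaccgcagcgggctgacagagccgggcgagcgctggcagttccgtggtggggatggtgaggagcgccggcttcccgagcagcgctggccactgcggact
Atf4: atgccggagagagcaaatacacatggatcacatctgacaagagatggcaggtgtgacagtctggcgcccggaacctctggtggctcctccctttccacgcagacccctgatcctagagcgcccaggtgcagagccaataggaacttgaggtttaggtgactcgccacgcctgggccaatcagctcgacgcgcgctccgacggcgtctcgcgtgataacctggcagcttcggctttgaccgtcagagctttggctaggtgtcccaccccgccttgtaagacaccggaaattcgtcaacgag
Atf3: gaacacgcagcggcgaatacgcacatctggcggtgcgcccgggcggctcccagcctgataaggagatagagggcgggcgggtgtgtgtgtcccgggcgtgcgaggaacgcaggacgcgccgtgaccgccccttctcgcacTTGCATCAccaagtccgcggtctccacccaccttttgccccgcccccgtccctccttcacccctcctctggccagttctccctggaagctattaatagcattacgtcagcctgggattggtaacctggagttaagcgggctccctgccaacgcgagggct
Ppp1r15a: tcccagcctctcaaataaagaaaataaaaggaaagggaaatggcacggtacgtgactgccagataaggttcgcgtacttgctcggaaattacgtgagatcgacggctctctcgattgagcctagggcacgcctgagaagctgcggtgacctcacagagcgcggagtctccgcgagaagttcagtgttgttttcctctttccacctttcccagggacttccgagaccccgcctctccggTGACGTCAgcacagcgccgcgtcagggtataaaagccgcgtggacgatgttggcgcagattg

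TGATGNAA occurred in 3 of the 10 genes and in 3.97% of all 32851 promoters of this length. Counting the start base as 0, the match spans -23 to -16 in Asns on the strand of the gene, 14 to 21 in Trib3 on the other strand (ahead of the span given for Trib3 below, which begins further inward than the RefSeq start), and -110 to -103 in Atf3 on the other strand. The Atf3 match is also the only one to TGATGCAA, which 0.895% of promoters hold. TGACGTCA occurred in Ppp1r15a alone, from -12 to -5, and in 1.79% of promoters. The ER stress response element was in none of the 12 windows and in 0.119% of promoters. Asns and Trib3, which hold TGATGNAA, were higher with ALX-5407 and Atf3, which holds it too, was lower, and Sesn2 was higher with no match. A match is a run of letters and not evidence of binding, and its absence says only that the letters are not in this window. Of the 8 related genes with a window, Jdp2 alone held TGATGNAA and TGATGCAA.

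Among the sensors, Eif2ak4 (ENSMUSG00000005102, chromosome 2 from 118388618 to 118475234, + strand), which encodes GCN2, was at 47.3, 44.9 and 47.2 CPM with vehicle and 51.5, 53.7 and 52.4 CPM with ALX-5407. The ALX-5407 cultures all lay above the vehicle cultures, by a small step. Group means were 46.5 ± 1.37 and 52.5 ± 1.15 CPM (SD, n = 3 each), with a log2 fold change of 0.18 (SE 0.0738). It was also the steadiest of the 10 genes between replicates, with a within-group SD of 0.0375 on the log2 CPM scale against a median of 0.152 over tested genes. Its size depended on the scaling: 0.12 with upper-quartile factors and 0.24 with totals alone.

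The genes of the other eIF2 kinases had log2 fold changes of either sign. Eif2ak3, which encodes the ER stress sensor PERK, was at 75.00, 74.7 and 78.5 CPM with vehicle and 44.4, 45.5 and 46.3 CPM with ALX-5407, lower in every treated culture, with a log2 fold change of -0.74 (SE 0.0716, adjusted p = 4.37e-07). Eif2ak2, which encodes PKR, the sensor of double-stranded RNA, was at 24.3, 22.96 and 21.9 against 34.3, 33.2 and 36.6 CPM, higher in every treated culture, at 0.59 (SE 0.0878, adjusted p = 3.93e-05). Eif2ak1, for the heme-regulated kinase HRI, was at 51.01, 48.3 and 42.9 against 42.8, 45.6 and 42.8 CPM, values that overlap, at -0.12 (SE 0.0831, adjusted p = 0.272). Without vehicle replicate 3 it was called, at -0.20 (adjusted p = 0.0437).

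Around the kinases stand the genes of eIF2, its exchange factor eIF2B, the regulators of the kinases and the phosphatase catalytic subunits. Of 21 such genes, all tested, 4 were called higher and 4 lower (19.05% and 19.05%, beside 24.5% and 23.2% of all tested genes), with a median log2 fold change of -0.01 beside 0.01 over all tested genes. Gcn1l1, whose product is needed on the ribosome to activate GCN2, rose from 129 ± 11.4 to 224 ± 4.49 CPM (SD, n = 3 each; log2 fold change 0.80, adjusted p = 4.16e-07). Dnajc3, for an ER co-chaperone known as a kinase inhibitor, rose from 72.3 to 96.4 CPM, log2 fold change 0.41, and Eif2b5, the catalytic subunit of eIF2B, from 70.1 to 87.3 CPM, log2 fold change 0.32. The catalytic subunit gene Ppp1ca rose from 306 to 378 CPM, log2 fold change 0.30. Genes that fell were Eif2a (223 to 148 CPM, log2 fold change -0.59), for an initiation factor apart from eIF2, Eif2s2 (437 to 336 CPM, log2 fold change -0.38), the beta subunit of eIF2, Prkra (16.3 to 11.9 CPM, log2 fold change -0.46), an activator of PKR, and Nck1 (34.4 to 29.2 CPM, log2 fold change -0.23), an adaptor. The phosphatase subunit gene Ppp1cc, among the most abundant of the list with Ppp1ca, was not called (284 to 321 CPM, log2 fold change 0.17).

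Ppp1r15a (ENSMUSG00000040435, chromosome 7 from 45522916 to 45526268, - strand) encodes GADD34, the inducible subunit that directs protein phosphatase 1 to eIF2. Its level was 79.9, 81.97 and 60.99 CPM with vehicle and 53.04, 61.04 and 46.4 CPM with ALX-5407. ALX-5407 replicate 2 lay just above vehicle replicate 3, so the groups overlapped at their edges, while the other cultures stood apart. The means were 74.3 ± 11.6 and 53.5 ± 7.31 CPM (SD, n = 3 each), with a log2 fold change of -0.47 (SE 0.112). The related gene Ppp1r15b, for a constitutive subunit, moved the opposite way, from 136, 148 and 129.9 CPM to 166, 167 and 186 CPM without overlap, at 0.32 (SE 0.0759, adjusted p = 0.00220). The difference between these related genes was not tested.

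Atf4 (ENSMUSG00000042406, chromosome 15 from 80255184 to 80257541, + strand), the central transcription factor of the response, was at 421, 446 and 378 CPM in the vehicle cultures and 262, 263 and 249 CPM in the ALX-5407 cultures. Every treated culture was far below every vehicle culture, and the treated cultures lay close to each other. The means were 415 ± 34.2 and 258 ± 7.90 CPM (SD, n = 3 each), 1.61-fold lower with ALX-5407, a log2 fold change of -0.69 (SE 0.0755). Ddit3 (ENSMUSG00000025408, chromosome 10 from 127290774 to 127296288, + strand), which encodes CHOP, the factor tied to prolonged stress, was at 52.3, 56.3 and 44.5 against 36.7, 38.5 and 35.6 CPM. The groups were again apart, with a log2 fold change of -0.47 (SE 0.0906) from means of 51.03 ± 5.99 and 36.96 ± 1.48 CPM (SD, n = 3 each).

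Atf3 (ENSMUSG00000026628, chromosome 1 from 191170296 to 191218039, - strand), a repressor and activator induced by many stresses, was at 38.4, 35.02 and 32.4 CPM with vehicle and 31.04, 31.6 and 24.98 CPM with ALX-5407. The groups did not overlap, but vehicle replicate 3 stood only just above the nearest treated cultures. Its log2 fold change was -0.27 (SE 0.102), and leaving out each culture in turn gave -0.34 to -0.16. The related bZIP gene Jdp2 was low, at 7.80, 7.05 and 5.75 against 5.86, 7.43 and 5.68 CPM, with overlapping groups and a log2 fold change of -0.12 (SE 0.163, adjusted p = 0.581), or -0.25 to -0.03 with each culture left out.

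Atf5 (ENSMUSG00000038539, chromosome 7 from 44812256 to 44816658, - strand), a factor known from the mitochondrial arm of stress signalling, differed in direction from the other 3 transcription factor genes of the set. Its level was 24.2, 26.2 and 17.5 CPM with vehicle and 39.4, 39.8 and 35.7 CPM with ALX-5407. All treated cultures were above all vehicle cultures, and vehicle replicate 3 was the lowest of the 6. The means were 22.6 ± 4.51 and 38.3 ± 2.26 CPM (SD, n = 3 each), 1.69-fold higher with ALX-5407, a log2 fold change of 0.76 (SE 0.120), which lay between 0.59 and 0.86 when each culture was left out in turn.

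Of 26 other bZIP genes, the family that supplies dimer partners to ATF4, CHOP and ATF3, 22 were tested, 8 were called higher and 6 lower (36.4% and 27.3%, beside 24.5% and 23.2% of all tested genes), with a median log2 fold change of 0.15 beside 0.01 over all tested genes. Cebpg, a known partner of ATF4, rose from 61.5 ± 4.07 to 86.6 ± 4.48 CPM (SD, n = 3 each; log2 fold change 0.49, adjusted p = 6.15e-05). Maf (50.1 to 123 CPM, log2 fold change 1.30), Atf6b (37 to 55.5 CPM, log2 fold change 0.59), Atf6 (61.5 to 84.02 CPM, log2 fold change 0.45) and Nfe2l1 (151 to 214 CPM, log2 fold change 0.50) rose as well. The genes that fell were led by Crem, a cAMP-responsive repressor and activator, from 269.9 ± 15.98 to 92.4 ± 10.1 CPM (SD, n = 3 each; log2 fold change -1.55, adjusted p = 1.14e-09), followed by Creb3l2 (111 to 71.6 CPM, log2 fold change -0.64), Creb3 (33.4 to 25.5 CPM, log2 fold change -0.39), Batf (70.6 to 55.7 CPM, log2 fold change -0.34) and Batf3 (80.5 to 63.6 CPM, log2 fold change -0.34). The most abundant of the list per length, Nfil3 (268 to 263 CPM, log2 fold change -0.03) and Xbp1 (211 to 236 CPM, log2 fold change 0.17), were not called.

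Trib3 (ENSMUSG00000032715, chromosome 2 from 152337422 to 152344032, - strand) encodes a pseudokinase that binds ATF4 and restrains it. It was at 32.9, 29.3 and 31.3 CPM with vehicle and 97.4, 101 and 90.8 CPM with ALX-5407. The gap between the groups was many times the spread within either. The means were 31.2 ± 1.81 and 96.5 ± 5.19 CPM (SD, n = 3 each), 3.09-fold higher, a log2 fold change of 1.63 (SE 0.0789), which placed it 166th of 15938 genes ordered from the largest increase. Trib2, a related pseudokinase gene, was at 50.4, 50.8 and 50.2 CPM with vehicle and 135, 133 and 129 CPM with ALX-5407. These groups were even tighter and just as separate, with a log2 fold change of 1.39 (SE 0.0692, adjusted p = 4.15e-10). Trib1 was lower in level, at 18.3, 16.9 and 17.2 against 29.2, 24.9 and 31.8 CPM, likewise without overlap, at 0.71 (SE 0.104, adjusted p = 3.31e-05). All 3 tribbles genes were thus higher with ALX-5407, under every scaling tried.

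Sesn2 (ENSMUSG00000028893, chromosome 4 from 132492032 to 132510501, - strand), whose product senses leucine and holds back mTORC1, was at 35.3, 30.2 and 28.1 CPM with vehicle and 79.5, 95.5 and 90.04 CPM with ALX-5407. ALX-5407 replicate 1 was the lowest treated culture and was still far above every vehicle culture. The means were 31.2 ± 3.71 and 88.4 ± 8.13 CPM (SD, n = 3 each), 2.83-fold higher, a log2 fold change of 1.5 (SE 0.0953). The other sestrin genes were not called. Sesn1, at 15.4, 14.2 and 18.4 against 16.03, 16.5 and 20.2 CPM, overlapped between the groups, with a log2 fold change of 0.13 (SE 0.123, adjusted p = 0.392), or 0.03 to 0.23 with each culture left out. Sesn3, the most abundant sestrin gene per length with vehicle, overlapped too, at 284, 291 and 282 against 275, 279 and 305 CPM, with 0.0027 (SE 0.0700, adjusted p = 0.980). Whether Sesn2 differed from them was not tested.

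Asns (ENSMUSG00000029752, chromosome 6 from 7675169 to 7693254, - strand), for the enzyme that makes asparagine, was at 95.6, 101 and 114 CPM with vehicle and 256, 265 and 265 CPM with ALX-5407. The treated cultures were nearly equal to each other and all far above the vehicle cultures. The means were 103 ± 9.40 and 262 ± 5.0 CPM (SD, n = 3 each), 2.54-fold higher, a log2 fold change of 1.34 (SE 0.0771).

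Ddit4 (ENSMUSG00000020108, chromosome 10 from 59949669 to 59951834, - strand) encodes REDD1, a brake on mTORC1 that several stress pathways switch on. It was at 459, 426 and 334 CPM with vehicle and 379, 392 and 259.7 CPM with ALX-5407. Replicate 3 was low in both groups and the groups overlapped. With means of 406 ± 64.4 and 344 ± 72.99 CPM (SD, n = 3 each) and a log2 fold change of -0.24 (SE 0.132), the largest SE of the 10 genes, its size depended on replicate 3: the log2 fold change was -0.38 without vehicle replicate 3 and -0.07 without ALX-5407 replicate 3. Its relative Ddit4l had 4 to 11 counts a library and did not pass the filter.

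Across the 10 related genes named so far (the kinases, Ppp1r15b, Jdp2, the sestrins, the tribbles and Ddit4l), 9 were tested, 4 were called higher and 1 lower (44.4% and 11.1%, beside 24.5% and 23.2% of all tested genes), with a median log2 fold change of 0.13 beside 0.01 over all tested genes. Without vehicle replicate 3, 2 were called lower.

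**Figure D2:**
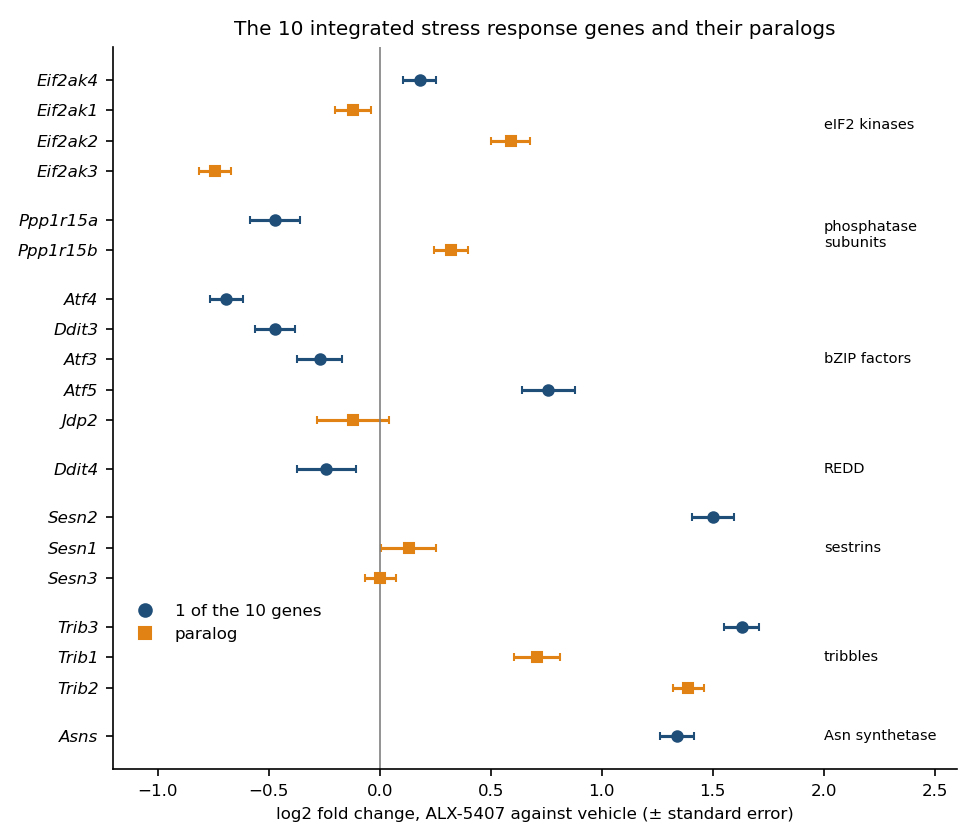
Log2 fold change of ALX-5407 against vehicle (x axis, bars are the SE from the fit, n = 3 cultures a group) for the 10 genes (blue circles) and their tested paralogs (orange squares), by family. The tribbles lie to the right of 0 together (0.71 to 1.63), the eIF2 kinases lie on both sides of it (-0.74 to 0.59), and Ppp1r15a (-0.47) and Ppp1r15b (0.32) lie on opposite sides.

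Levels between genes were compared per length, as FPKM, counts scaled to both gene length and library size (mean ± SD, n = 3). With vehicle, Ddit4 (231 ± 36.7) and Atf4 (176 ± 14.5) led, both among the most abundant 1.47% of tested genes. Asns (37.8 ± 3.44), Ddit3 (29.8 ± 3.49), Ppp1r15a (25.3 ± 3.94), Atf3 (16.4 ± 1.39), Trib3 (14.7 ± 0.852), Atf5 (11.4 ± 2.26), Sesn2 (8.99 ± 1.07) and Eif2ak4 (6.23 ± 0.183) followed in that order. All were above the median of tested genes, 4.08 FPKM. Neighbours that overlapped between cultures, and so were not ordered beyond their spread, were Ddit3 with Ppp1r15a, Atf3 with Trib3, and Atf5 with Sesn2.

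With ALX-5407 the order changed in the middle and not at the ends. Ddit4 (196 ± 41.6 FPKM), Atf4 (109 ± 3.35) and Asns (95.8 ± 1.83) stayed at the top, with Atf4 and Asns now close though still not overlapping, and Eif2ak4 (7.05 ± 0.154) at the bottom. Trib3 (45.4 ± 2.44) moved from place 7 to place 4 and Sesn2 (25.4 ± 2.34) from place 9 to place 5, past Ddit3 (21.6 ± 0.863), Ppp1r15a (18.2 ± 2.49) and Atf3 (13.6 ± 1.71). Atf5 (19.2 ± 1.13) stood at place 7 and overlapped Ppp1r15a, the only neighbours in this group that did. The median of tested genes was 4.12 FPKM.

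**Figure D3:**
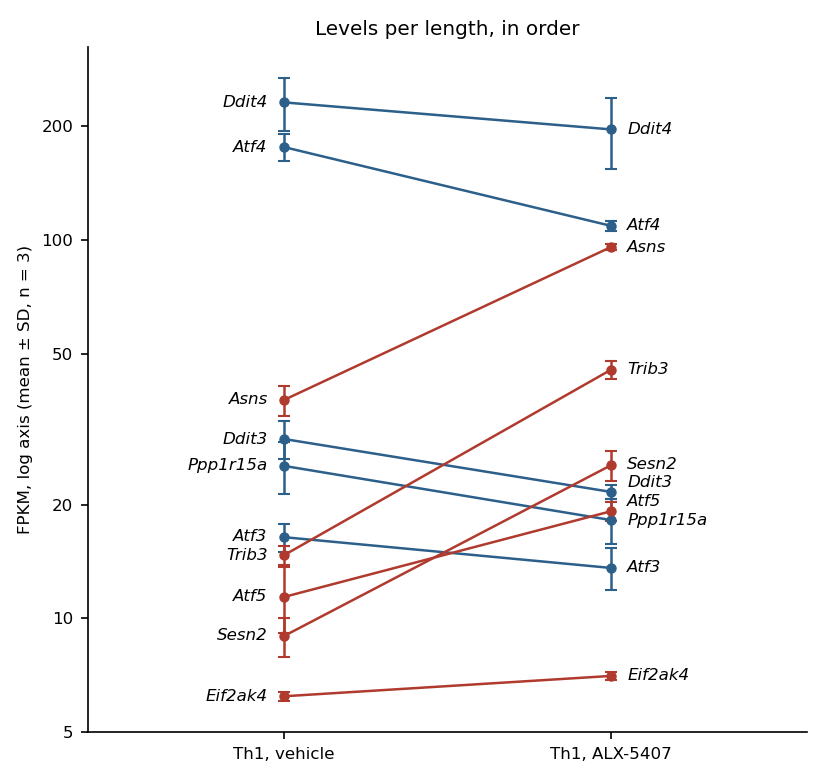
Mean FPKM (y axis, log scale, bars are SD, n = 3 cultures a group) of the 10 genes in vehicle and ALX-5407 cultures, with lines joining the means of a gene, red where the mean is higher with ALX-5407 and blue where it is lower. Trib3 goes from 14.7 to 45.4 FPKM and crosses the lines of Atf3, Ppp1r15a and Ddit3, and Atf4 comes down from 176 to 109 FPKM toward Asns at 95.8.

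The levels of the targets relative to their regulator were put as a ratio of counts within each culture, where the library total and its scaling cancel. These ratios were added after the levels had been seen and are a description. Asns counts per Atf4 count were 0.227, 0.226 and 0.301 in the vehicle cultures and 0.980, 1.01 and 1.07 in the ALX-5407 cultures. Asns thus came level with Atf4 in counts in the treated cultures. Trib3 counts per Atf4 count were 0.0780, 0.0657 and 0.0829 in the vehicle cultures and 0.373, 0.384 and 0.365 in the ALX-5407 cultures, and Sesn2 counts per Atf4 count were 0.0839, 0.0679 and 0.0744 in the vehicle cultures and 0.304, 0.363 and 0.362 in the ALX-5407 cultures. Atf4 itself was 1.61-fold lower with ALX-5407, which raises every ratio to it, also that of a gene with an unchanged level. The mean ratios were 4.95, 4.55 and 4.05 times as high with ALX-5407 for Trib3, Sesn2 and Asns, and 2.74 times as high for Atf5. The fourth target did not separate in this way. Ddit4 counts per Atf4 count were 1.09, 0.955 and 0.884 in the vehicle cultures and 1.45, 1.49 and 1.04 in the ALX-5407 cultures, which overlap.

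The lower-going genes kept nearer to Atf4. For Atf3 and Ddit3 the mean ratio to Atf4 was 1.33 and 1.17 times as high with ALX-5407, with every treated culture above every vehicle culture, while the ratio of Ppp1r15a to Atf4 (0.190, 0.184 and 0.161 in the vehicle cultures and 0.203, 0.232 and 0.187 in the ALX-5407 cultures) overlapped between the groups. Trib3 against Asns also overlapped (0.344, 0.291 and 0.275 in the vehicle cultures and 0.380, 0.382 and 0.342 in the ALX-5407 cultures), as did Ddit3 against Atf3 (1.36, 1.61 and 1.37 in the vehicle cultures and 1.18, 1.22 and 1.43 in the ALX-5407 cultures). Trib3 against Ddit3, the factor that is known to act with ATF4 on Trib3, went from 0.618 ± 0.0923 to 2.61 ± 0.0538 (SD, n = 3 each). Sesn2 against Ddit4, both genes of brakes on mTORC1, was 0.0771, 0.0711 and 0.0842 in the vehicle cultures and 0.210, 0.243 and 0.347 in the ALX-5407 cultures.

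**Figure D4:**
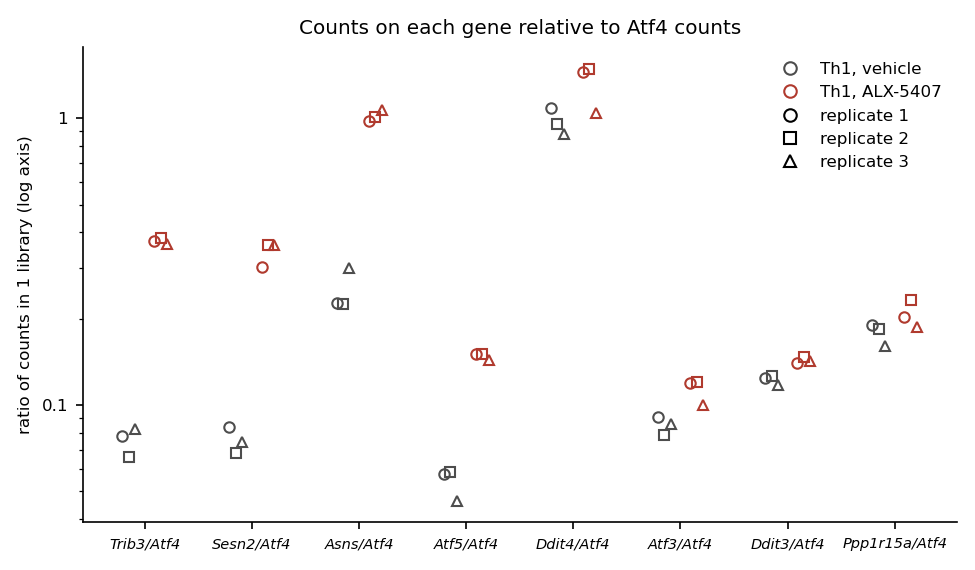
Counts on each gene divided by counts on Atf4 in the same library (y axis, log scale), for the 3 vehicle cultures (grey) and the 3 ALX-5407 cultures (red), 1 symbol for each replicate. The red points of Trib3, Sesn2, Asns and Atf5 stand far above the grey ones, those of Atf3 and Ddit3 just above, and those of Ddit4 and Ppp1r15a overlap them.

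Replicates of a group differed in a shared way. Replicate 3 was the lowest culture for 7 of the 10 genes with vehicle and for 7 of the 10 with ALX-5407, beside 37.1% and 35.4% of all tested genes. Ddit4, Ppp1r15a and Atf5 varied most within groups (SD of log2 CPM 0.288, 0.217 and 0.224, against a median of 0.152 over tested genes). Eif2ak4, Trib3, Atf4 and Asns varied least, at 0.0375, 0.0813, 0.0910 and 0.0934. Asns had its highest value in replicate 3 of both groups, and Eif2ak4 its lowest in another replicate in both. The remaining departures were Trib3 with vehicle and Sesn2 with ALX-5407. Across tested genes, pairs of cultures of a group differed by more than counting noise, with a chi-square per degree of freedom from 5.65 to 22.4.

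Since the response is known for translation through upstream reading frames, the leaders of the 10 genes, the part of the messenger ahead of the coding part, were read from their principal GENCODE M21 transcripts, after the counts had been seen. Ppp1r15a had 7 upstream ATG triplets in a leader of 764 bases, a number that 4.83% of the 12374 tested coding genes with a leader reach. Atf4 had 3 in 594 bases (19.6% have as many), Atf5 had 2 in 373 and Ddit3 2 in 186 bases. Atf3, Sesn2 and Asns had 1 each, as 52.1% of coding genes have at least, and Ddit4, Trib3 and Eif2ak4 had 0. An upstream frame that runs into the coding part was found in Atf4, Atf5 and Ppp1r15a, 3 of the 10 genes, and in 16.8% of coding genes. Of these 3, Atf5 was higher in RNA with ALX-5407 and Atf4 and Ppp1r15a were lower. Among the 10 related genes, Eif2ak3 and Ppp1r15b also had 3 upstream ATGs each, while Trib1 had 0 in 813 bases. A frame into the coding part was likewise found in 3 of these 10, Jdp2, Eif2ak2 and Eif2ak3.

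In GENCODE M21, exons of Atf4, Atf3, Ddit4, Trib3, Sesn2, Asns and Eif2ak4 share no base with exons of another gene. Ddit3 shares 186 of its exon bases (10.9%), 105 with its further identifier on the same strand, 68 with the transfer RNA synthetase gene Mars and 13 with Gm4189 on the opposite strand. Mars had 4473, 4129 and 4063 counts with vehicle and 6065, 6648 and 6702 with ALX-5407, a direction opposite to Ddit3. Atf5 shares 82 bases (4.11%) with Nup62 and Il4i1 on the opposite strand, of which Nup62 had 3632, 3720 and 3012 counts with vehicle and 5622, 5719 and 5292 with ALX-5407. Ppp1r15a shares 12 bases (0.409%) with Tulp2. The strand setting of the counting is not given in the sources used, so the reads of Mars and Nup62 that count toward Ddit3 and Atf5, if any, cannot be told apart. The principal transcript of each of the 10 genes matched none of 13523 pseudogenes at 95% identity over 100 bases. Their other transcripts were not searched.

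For the 4 genes with the largest absolute log2 fold change, the profiles most like them over the 6 libraries were sought by root mean square distance of centred log2 CPM. The search covered 9599 tested genes with a mean of at least 5 CPM. Left out were the 10 genes themselves and genes with names of Gm and a number or ending in Rik. Trib3 was nearest to Gbp10 (0.0493) and Chchd10 (0.0747), Sesn2 to Rps13-ps2 (0.0904) and Zfp608 (0.0946), Asns to Cth (0.0613) and Ccnf (0.0659), and Atf5 to Iffo2 (0.0503) and Lpar5 (0.0575). Cth, for the enzyme that makes cysteine from cystathionine, was at 25.9, 25.7 and 29.7 CPM with vehicle and 74.6, 72.00 and 74.4 CPM with ALX-5407. It followed Asns closely in every culture, at a lower count. Sesn2 had the least close neighbours of the 4.

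Beyond the 10 genes, lists of pathway genes were counted. The list nearest to Asns in role is amino acid synthesis and transport, where 21 of 27 genes were called higher and 1 lower (77.8% and 3.70%, beside 24.5% and 23.2% of all tested genes), with a median log2 fold change of 0.71 beside 0.01 over all tested genes. Its summed level was 2977, 2934 and 2838 CPM in the vehicle cultures and 4732, 4761 and 4739 CPM in the ALX-5407 cultures. Slc7a5, the large neutral amino acid transporter and with ALX-5407 the most abundant gene of the list per length, rose from 270.3 ± 28.2 to 895 ± 18.3 CPM (SD, n = 3 each; log2 fold change 1.73, adjusted p = 2.34e-10). Slc7a11, the cystine transporter and also an NRF2 target, rose from 1.95 ± 0.135 to 9.71 ± 0.252 CPM (SD, n = 3 each; log2 fold change 2.31, adjusted p = 1.20e-08), the largest log2 fold change of the list. Slc7a3 (11.5 to 47.7 CPM, log2 fold change 2.05), Cth (27.1 to 73.7 CPM, log2 fold change 1.44) and Phgdh (191 to 366 CPM, log2 fold change 0.93), the entry enzyme of serine synthesis, rose as well. Got1 was the gene that fell (204 to 161 CPM, log2 fold change -0.34).

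A list of transfer RNA synthetases, which charge the molecules whose uncharged form GCN2 senses, and the transfer RNA exporter gene Xpot had 15 of 21 genes called higher and 1 lower (71.4% and 4.76%, beside 24.5% and 23.2% of all tested genes), with a median log2 fold change of 0.27 beside 0.01. Their steps were smaller than those of Asns. Wars (50.5 to 99.4 CPM, log2 fold change 0.98), Vars (253 to 461 CPM, log2 fold change 0.87), Aars (214 to 365 CPM, log2 fold change 0.77), Gars (254 to 389 CPM, log2 fold change 0.61), Nars (279.9 to 367 CPM, log2 fold change 0.39) and Xpot (129 to 221 CPM, log2 fold change 0.77) rose, and Qars fell (289 to 238 CPM, log2 fold change -0.28). With upper-quartile scaling, 2 were called lower.

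Of 30 other genes known as targets of ATF4 or CHOP, 28 were tested (Fgf21 and Gdf15 were not). Of these, 10 were called higher and 8 lower (35.7% and 28.6%, beside 24.5% and 23.2% of all tested genes), and the median log2 fold change was 0.08. Pck2, the mitochondrial enzyme that makes phosphoenolpyruvate, rose from 95.98 ± 1.73 to 180.3 ± 9.23 CPM (SD, n = 3 each; log2 fold change 0.91, adjusted p = 4.59e-08). Stc2 (73.3 to 136 CPM, log2 fold change 0.89), Fam129a (148 to 255 CPM, log2 fold change 0.78), Herpud1 (59.2 to 83.05 CPM, log2 fold change 0.49) and Ero1l (1466 to 2070.1 CPM, log2 fold change 0.50), the ER oxidase and most abundant gene of the list per length, rose too. The autophagy genes Atg12 (79.98 to 52.1 CPM, log2 fold change -0.62), Gabarapl1 (74.9 to 54.3 CPM, log2 fold change -0.46) and Atg3 (60.7 to 46.1 CPM, log2 fold change -0.40) fell, as did Vegfa (216 to 145 CPM, log2 fold change -0.57) and Ndrg1 (608 to 433 CPM, log2 fold change -0.49), which are hypoxia targets as well. Cdkn1a was not called (371 to 398 CPM, log2 fold change 0.10).

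In the arms of the ER unfolded protein response run by ATF6 and XBP1, 10 of 28 genes were called higher and 6 lower (35.7% and 21.4%, beside 24.5% and 23.2% of all tested genes), with a median log2 fold change of 0.04. Sel1l (94.6 to 188 CPM, log2 fold change 0.99), a part of the ER degradation machinery, and the chaperone genes Hyou1 (148 to 215 CPM, log2 fold change 0.54), Dnajb11 (60.7 to 91.3 CPM, log2 fold change 0.59) and Pdia4 (109 to 159 CPM, log2 fold change 0.55) rose. Selenos (68.7 to 45.4 CPM, log2 fold change -0.60), Sec61b (86.4 to 55.3 CPM, log2 fold change -0.64), P4hb (1157 to 791 CPM, log2 fold change -0.55), the sensor gene Ern1 (51.2 to 39.1 CPM, log2 fold change -0.39) and Ssr1 (291 to 244 CPM, log2 fold change -0.26) fell, and the abundant chaperone gene Calr was not called (597 to 594 CPM, log2 fold change -0.01). Of 15 genes of mitochondrial protein stress, 2 were called higher and 3 lower (13.3% and 20%, beside 24.5% and 23.2% of all tested genes), with a median of 0.05. Hspa9 (538 to 748 CPM, log2 fold change 0.48) and Lonp1 (399 to 529 CPM, log2 fold change 0.41) rose. Hspe1 (298 to 205 CPM, log2 fold change -0.54), Afg3l2 (272 to 216 CPM, log2 fold change -0.33) and Clpx (101 to 82.1 CPM, log2 fold change -0.30) fell. With scaling by totals alone, or with the replicate block, 4 of the 15 were called higher.

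Genes of mTORC1 and nutrient sensing, the pathway that Sesn2 and Ddit4 restrain, were called higher in 7 of 30 and lower in 9 (23.3% and 30%, median log2 fold change -0.09), beside 24.5% and 23.2% of all tested genes, the shares to set against each count that follows. Depdc5 (40.2 to 62.1 CPM, log2 fold change 0.63), for a subunit of GATOR1, a brake on mTORC1, rose, as did Mtor (73.3 to 104 CPM, log2 fold change 0.51) and Rptor (39.05 to 55.5 CPM, log2 fold change 0.51) of mTORC1 itself and Tsc2 (44.3 to 65.8 CPM, log2 fold change 0.57), another brake. Its partner Tsc1 (60.03 to 48.02 CPM, log2 fold change -0.32) fell, as did Mlst8 (17.5 to 12.4 CPM, log2 fold change -0.50), also of mTORC1, Seh1l (138 to 101 CPM, log2 fold change -0.45), for a subunit of GATOR2, the complex that sestrins bind, and Flcn (49.9 to 25.2 CPM, log2 fold change -0.98). NRF2 targets were called higher in 12 of 18 and lower in 3 (66.7% and 16.7%, median 0.33), and the smallest p-values were those of Slc7a11, Txnrd1 (123 to 204 CPM, log2 fold change 0.73) and Srxn1 (4.34 to 11.6 CPM, log2 fold change 1.42). The 2 most abundant NRF2 targets per length, Fth1 (681 to 484 CPM, log2 fold change -0.49) and Txn1 (315 to 224 CPM, log2 fold change -0.50), fell, and the summed level of the list overlapped between the groups, at 2563, 2410.2 and 2169 CPM in the vehicle cultures and 2400.1, 2402 and 2247 CPM in the ALX-5407 cultures. For p53 targets, to which Sesn1 belongs, the counts were 8 higher and 2 lower of 20 (40% and 10%, median 0.19), and 1 was lower without ALX-5407 replicate 1. Hypoxia targets were mostly called lower, with 2 of 20 higher and 13 lower (10% and 65%, median -0.38), with Pgk1, the most abundant, at 4249.9 to 3273 CPM, log2 fold change -0.38. Immediate early genes, with which Atf3 is often induced, were called higher in 12 of 24 and lower in 5 (50% and 20.8%, median 0.25), with Egr1 (105 to 244 CPM, log2 fold change 1.21) among the higher and Nr4a2 (69.7 to 19.3 CPM, log2 fold change -1.85) among the lower. Heat shock genes were called higher in 5 and lower in 5 of 16 (31.2% and 31.2%, median 0.09). The 14 lists hold 288 distinct genes, and 18 genes stand in more than 1 list.

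**Figure D5:**
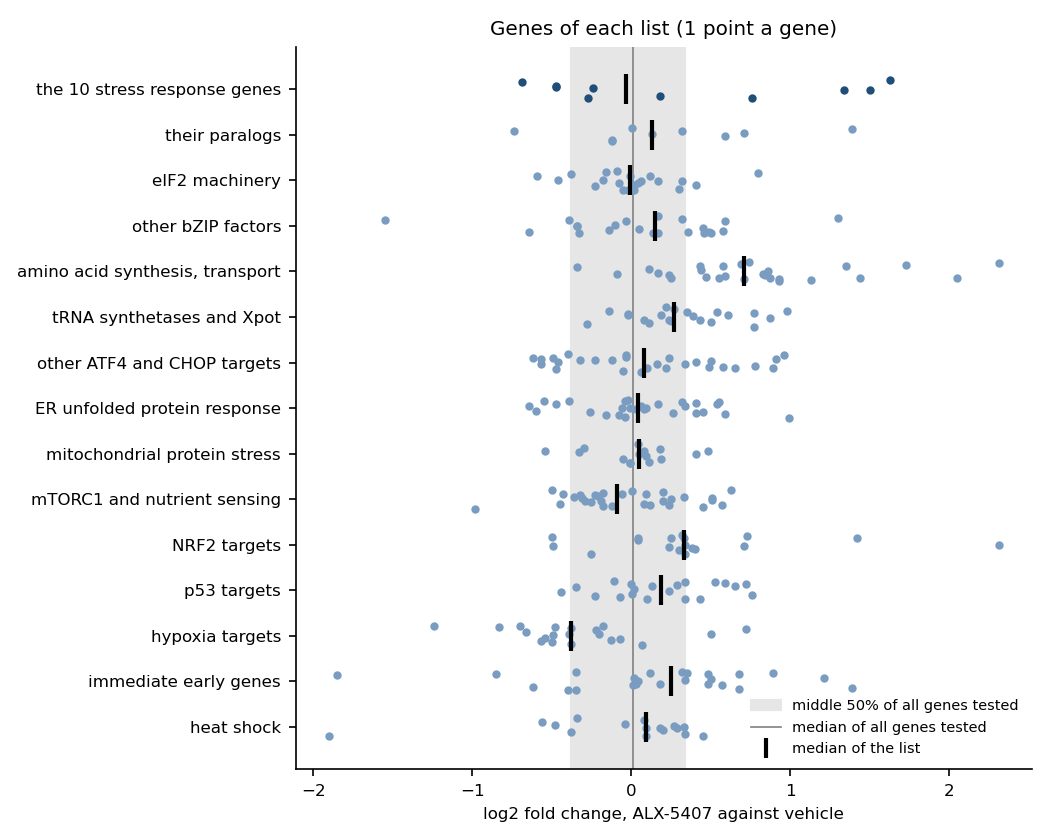
Log2 fold change of ALX-5407 against vehicle (x axis) for every tested gene of each list (1 point a gene, scattered in height for view), with the median of each list as a black bar, the median of all tested genes as a grey line and the middle 50% of all tested genes shaded. The median of amino acid synthesis and transport (0.71) lies to the right of the shaded band, and the 10 stress response genes spread from -0.69 to 1.63 around a median of -0.03.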

How the data were processed

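RNA of mouse CD4+ T cells was measured in 6 cultures kept under Th1 conditions, grouped by the labels into 3 with vehicle and 3 with ALX-5407. The authors deposited raw gene counts, with gene names, GRCm38 coordinates and gene lengths, made according to the submitters' notes with fastp, HISAT2 2.0.5 on mm10 and featureCounts 1.5.0-p3. Depth was 30801753 to 36727788 counts a library. Counts were fitted with edgeR 4.0.16 in R 4.3.3, using filterByExpr (minimum count 10, minimum total 15), TMM factors (0.965 to 1.028), the quasi-likelihood F test and Benjamini-Hochberg adjustment over the 15938 genes tested. FPKM used the lengths in the deposited file. No test is given for the 10 genes. Alternatives were other scalings, other filters, DESeq2 1.42.0, limma-voom (limma 3.58.1), a replicate block and each culture left out in turn. The procedure was tested on simulated data.

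The 10 genes and all gene lists were chosen with earlier results of these data known. The genes named are the 10, their 10 paralogs, in every other list up to 5 called genes in each direction with the smallest p-values plus the 2 most abundant per length, and the 2 nearest profiles of the 4 genes with the largest changes. Genes that share exon bases with the 10 were named for their position. Also named were the other tested myeloid marker, Cybb, the myeloid markers at 0, S100a8 and S100a9, and the untested targets Fgf21 and Gdf15. For lists outside the stress response, the values are printed in part. Counts of upstream ATGs, the pseudogene search (BLAST 2.17.0), shares and count ratios were added after the counts had been seen. Promoters came from RefSeq (GRCm38.p6), transcripts from GENCODE M21. The planned comparison of proteins was not run, and some listed genes are not reported here. Plots were made in Python 3.11.15 with matplotlib 3.10.9.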

Additional observations from a re-analysis of the deposited data

How the results depend on the processing

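The settings were 8 other ways of fitting and 6 that left out 1 culture each. All 10 genes kept the sign of their log2 fold change in all of them, as did every paralog that was called. Sesn3, not called, lay on both sides of 0, from -0.05 to 0.06. Of 140 values for the 10 genes, 138 stayed within the spread between replicates. The exceptions were Eif2ak4 with upper-quartile scaling (0.12) and with totals alone (0.24, against 0.18).

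Among list counts, 415 stayed within 1.5 times. In the list of transfer RNA synthetases and Xpot, 2 were called lower with upper-quartile scaling, and mitochondrial stress genes called higher were 4 with totals alone and 4 with the replicate block. With each culture left out, paralogs called lower ranged from 1 to 2, p53 targets called lower from 1 to 3, and the log2 fold changes of Eif2ak1 from -0.20 to -0.07, of Sesn1 from 0.03 to 0.23 and of Jdp2 from -0.25 to -0.03. For TGATGCAA in place of TGATGNAA, 1 gene had a match in place of 3. The cause of these differences was not tested. The median log2 fold change of all tested genes ranged from -0.05 to 0.06 over the settings. With the replicate block 7904 genes were called, against 7605. Deviations of cultures from their group means had correlations across genes from -0.0084 to 0.0635 for the same replicate number. For other numbers they were from -0.0615 to 0.0665. Genes are not independent replicates, and whether the numbers pair the cultures cannot be told from these values.

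RNA counts measure neither phosphorylation of eIF2 nor ATF4 protein, which were not analysed here. With 3 cultures a group at 1 dose and 1 time point, the order of changes and their dependence on dose cannot be told. The SE of the 10 log2 fold changes was 0.0738 to 0.132, and differences of 1 or 2 SE were not detectable with this number of cultures. The planned comparison of protein sequences was not run.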
